A study of Homo sapiens with 6 samples.

Results

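The miR-378 family was followed in small RNA libraries from exosomes, the small vesicles that cells secrete, of MDA-MB-231, a widely used human cell line derived from a triple-negative breast cancer. The family was taken as every mature miRNA whose name begins with miR-378, leaving out 5p arms, and comprised 4 of the 503 miRNAs listed in the count tables: hsa-miR-378a-3p, miR-378c, miR-378d and miR-378e (hsa for human; left off below). The libraries came from stable clones carrying either a control hairpin (shNC, n = 3) or a hairpin that lowers MCU (shMCU, n = 3), MCU being the channel subunit through which calcium enters the mitochondrial matrix. Both kinds of cell were grown for 48 hours in medium whose serum was described as free of exosomes. The labels give neither the number of clones behind a group nor whether its replicates were separate cultures, so each p-value reflects library-to-library spread that could be technical. The series asks which exosomal miRNAs differ when MCU is lowered. The tables hold no MCU transcript, so the knockdown was not checked here.

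A miRNA is cut from a hairpin and directs silencing complexes to messenger RNAs mainly through its seed, bases 2 to 8 from the 5′ end. miR-378a is transcribed from within PPARGC1B, the gene of PGC-1β, a transcriptional coactivator that drives mitochondrial biogenesis and oxidative metabolism. In mice its 3p arm targets carnitine acetyltransferase and its 5p arm the Mediator subunit MED13, and animals without the miRNA are resistant to diet-induced obesity. In human breast cancer cells the 5p arm has been described to lower oxidative metabolism by targeting the nuclear receptor ERRγ.

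In GENCODE release 29 on GRCh38, the hairpin MIR378A lay on the plus strand at chr5:149732825-149732890, in an intron of PPARGC1B on the same strand (chr5:149730298-149855022). The annotation held 11 hairpin genes of the family, 2 of them for miR-378d. MIR378C lay on the minus strand at chr10:130962588-130962668 with no host gene on that strand. MIR378D1, one of the hairpins of miR-378d, lay on the minus strand at chr4:5923275-5923328 in an intron of C4orf50, and MIR378E on the plus strand at chr5:170028488-170028566 in an intron of DOCK2. PPARGC1B is thus the host of miR-378a alone among them.

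The mature sequences below, from RefSeq (GRCh38.p14), show why counts of the members are hard to separate; the seed is in capitals. Names listed in the count tables come first, followed by 4 paralogs that were not listed.
miR-378a-3p: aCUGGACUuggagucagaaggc
miR-378c: aCUGGACUuggagucagaagagugg
miR-378b: aCUGGACUuggaggcagaa
miR-378f: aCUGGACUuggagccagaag
miR-378i: aCUGGACUaggagucagaagg
miR-378g: aCUGGGCUuggagucagaag
The sequences of miR-378a-3p (22 bases) and miR-378c (25 bases) were identical over the leading 20 bases and differed only at the 3′ end (G21A and C22G, positions counted from the 5′ end and miR-378a-3p given before miR-378c). A read trimmed to those 20 bases matches both, and how such reads were counted is not stated in the labels, so the separate counts of the members are uncertain. Of 8 guide-arm sequences of the family in RefSeq, 6 shared the seed of miR-378a-3p. miR-378g (A6G) and miR-378j (C7U, not printed here) differed within it. Among the 437 listed miRNAs whose names matched a RefSeq sequence, miR-378a-3p and miR-378c were the 2 with this seed. miR-378d and miR-378e were not matched, so their sequences, seeds and motifs were not compared. The motif GGAG, searched on the strand of the miRNA itself, has been described in human T cells as common to miRNAs sorted into exosomes by hnRNPA2B1. It was found at bases 10 to 13 of miR-378a-3p and in miR-378c as well, and in 43 of the 437 listed miRNAs (9.84%). A match is a description of these letters only.

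Library totals ran from 11563 to 47863 counts of listed miRNAs, and 79 miRNAs passed the filter on low counts and were tested. Markers of the labelled cells were present: miR-21-5p, miR-221-3p, miR-222-3p and miR-100-5p together took 25.6% to 36.4% of counts, and the epithelial miR-200c-3p and miR-205-5p together 0.00681% to 0.190%. The library of shMCU replicate 3 stood apart, with the lowest share of the former and with the liver miRNA miR-122-5p at 103663 CPM (a count expressed against the same total in every library) against 12281 to 37231 CPM in the other 5 libraries.

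miR-378a-3p was the main member and varied less between libraries than most of the tested miRNAs. In shNC replicates 1, 2 and 3 it had 731, 135 and 266 counts, which were 1.53%, 1.17% and 1.34% of the library. In shMCU replicates 1, 2 and 3 it had 211, 198 and 190 counts, or 1.63%, 1.35% and 1.48%. The lowest share was in shNC replicate 2 and the highest in shMCU replicate 1, and the groups overlapped. The widest exact (Clopper-Pearson) 95% interval of a share, that of shMCU replicate 1, ran from 1.42% to 1.87%; these intervals cover counting error only, as reads without molecular identifiers are not independent molecules. It held rank 11 to 17 among all listed miRNAs in the separate libraries.

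By its mean over the 6 libraries, 14149 CPM, miR-378a-3p was number 14 of the 79 tested miRNAs. A read spans a whole mature miRNA, so these levels need no division by length. The next above were miR-151a-3p (15075 CPM) and miR-25-3p (14156 CPM) and the next below miR-24-3p (13321 CPM) and miR-7-5p (12599 CPM). None of these 4 was separated from it by more than the spread over libraries, which was an SD of 1645 CPM for miR-378a-3p and of 1938 to 7275 CPM for the others. Its coefficient of variation over the 6 libraries was 11.6%, where counting error alone gives 6.78%; it was the fourth smallest of the 79, whose median was 30.2%. After scaling by TMM, a factor that makes the bulk of miRNAs comparable between libraries, it was 17.1% and number 11 from the least, against a median of 27.7%. Many of the 79 had far fewer counts. Among the 21 tested miRNAs nearest in level, itself included, it was number 4 from the least by CPM (median 25.9%). After TMM it was number 7 of the 21 (median 21.0%). miR-378c, at a lower level, had 23.0% by CPM, number 22 of the 79, and 17.2% after TMM, number 12. For miR-378d these were 26.7%, number 30, and 29.3%, number 42. Counting error alone gives 18.0% for miR-378c and 32.4% for miR-378d, so how steady these 2 were was not resolved.

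**Figure D1:**
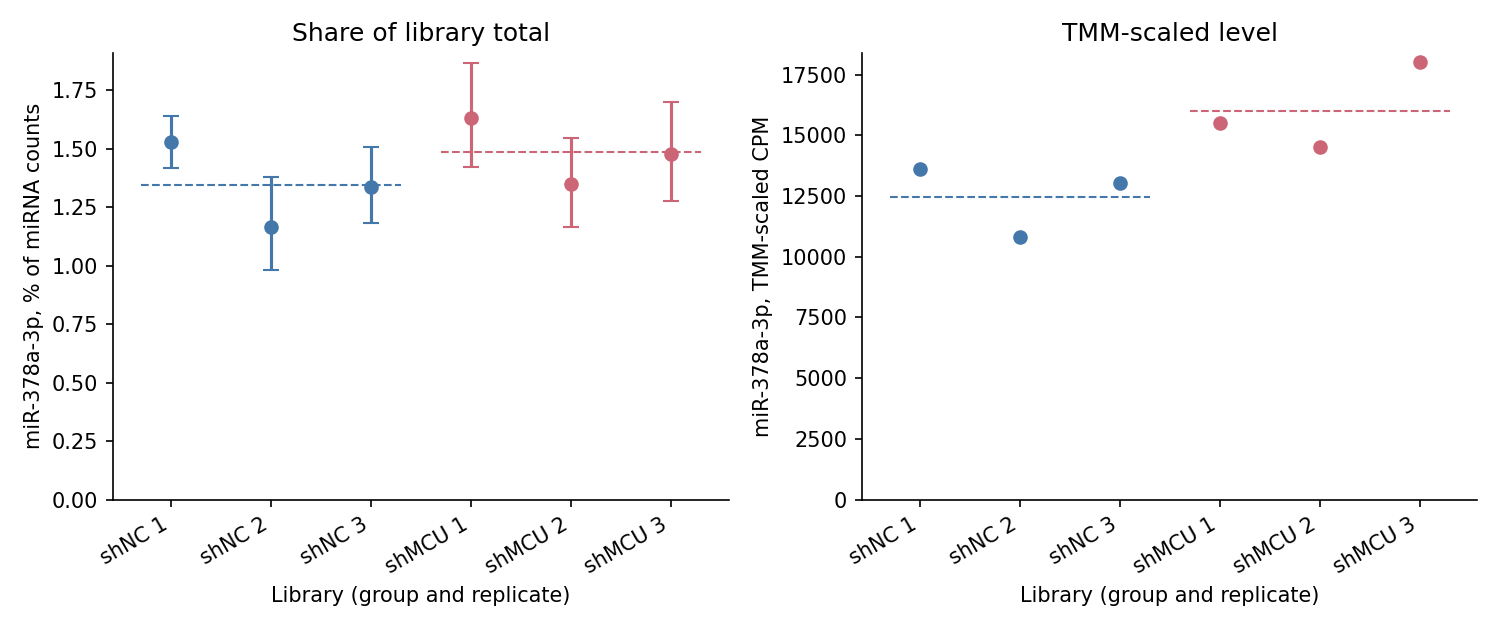
miR-378a-3p in each library, as percent of all miRNA counts with exact 95% intervals (left) and as TMM-scaled CPM (right); points are libraries (blue shNC, red shMCU) and dashed lines are group means. By share the groups overlap between 1.35% and 1.53%, while by TMM-scaled CPM every shMCU library, from 14531, lies above every shNC library, up to 13597.

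The difference in miR-378a-3p between the groups did not pass the test. Its share averaged 1.34% ± 0.180 (SD, n = 3) without and 1.49% ± 0.142 with the hairpin against MCU, 0.142 percentage points apart (exact permutation test over the 20 arrangements, two-sided p = 0.4; the smallest p this design allows is 0.1). With single libraries left out the difference was smallest without shNC replicate 2, at 0.0532 points, and largest without shNC replicate 1, at 0.233 points. In edgeR's quasi-likelihood test the log2 fold change, shMCU minus shNC, was 0.36 ± 0.22 (SE), or 1.28-fold, and its 95% interval ran from 0.912-fold to 1.80-fold (unadjusted p = 0.14, adjusted p = 0.70). Of all 79 miRNAs, 0 passed an adjusted p of 0.05 (0.0%) and 3 had an unadjusted p under 0.05 (3.8%); DESeq2 called 1, miR-122-5p.

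The size of that fold depended on how libraries were scaled. TMM-scaled levels were 13597, 10789 and 13016 CPM in shNC replicates 1, 2 and 3, and 15499, 14531 and 18024 CPM in shMCU replicates 1, 2 and 3. On this scale the groups did not overlap, as was the case with shMCU higher for 7 of the 79 miRNAs (8.86%), and 1 of the 3 tested family members was among them. On library totals no member was separated, and 1 of the 79 miRNAs was separated with shMCU higher (1.27%). Both shares leave out miRNAs separated with shMCU lower. On library totals miR-27b-3p was such a miRNA, at 33988 to 35657 CPM in shNC and 19131 to 26450 CPM in shMCU libraries. It was not alone, as miR-103a-3p, miR-181a-5p and miR-26a-5p were also separated with shMCU lower. How many of the 79 were separated in that direction was not counted. With library totals alone the log2 fold change of miR-378a-3p was 0.14, and the median of all tested miRNAs moved from -0.02 to -0.23; relative to that median, miR-378a-3p was 0.38 higher with TMM and 0.37 higher with library totals. The TMM factor was lowest in shMCU replicate 3, at 0.820 against 0.927 to 1.12 in the others, and without that library the log2 fold change was 0.22.

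The paralogs were counted far less often. The shNC replicates 1, 2 and 3 held 108, 24 and 38 counts of miR-378c, and the shMCU replicates in the same order 37, 29 and 18. Of miR-378d the shNC replicates held 40, 4 and 16 counts, and the shMCU replicates 11, 10 and 10. miR-378e was counted once in shNC replicates 1 and 3 and in shMCU replicate 2 and had 0 counts in the other 3 libraries, where a count of 0, taken as allowing up to 3 counts, allows up to 259 CPM in the shallowest. Its 3 counts over 119791 in all kept it below the filter. The level of miR-378c averaged 2081 ± 173 CPM (SD, n = 3) across the shNC and 2078 ± 736 CPM across the shMCU libraries. For miR-378d these averages were 662 ± 274 CPM and 770 ± 85.3 CPM. The groups overlapped for each. By mean level miR-378c was number 49 and miR-378d number 76 of the 79 tested.

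Set against miR-378a-3p, the 3 paralogs together stood at similar ratios in 5 of the 6 libraries. Per 100 counts of miR-378a-3p there were 20.4, 20.7 and 20.7 paralog counts in shNC replicates 1, 2 and 3. The numbers in shMCU replicates 1, 2 and 3 were 22.7, 20.2 and 14.7. Counting error was wider than the agreement of the shNC values, with an exact 95% interval of 13.3 to 31.3 in shNC replicate 2. How closely the paralogs followed was therefore not resolved. Only shMCU replicate 3 was lower than 20, and its exact 95% interval, from 9.54 to 22.0, still covered the values of the other libraries except that of shMCU replicate 1. Across shNC libraries the ratio averaged 20.6 ± 0.191 (SD, n = 3) and across shMCU libraries 19.2 ± 4.09, which differ by -1.37 (shMCU minus shNC) (exact permutation test, two-sided p = 0.7). Without shMCU replicate 3 the difference turned to 0.875. miR-378a-3p thus held 81.5% to 87.2% of the family's counts in every library, and the whole family 1.41% to 2.003% of a library.

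The ratios of the separate paralogs varied more than their sum in the shNC libraries. miR-378c stood at 14.8, 17.8 and 14.3 per 100 counts of miR-378a-3p in shNC and at 17.5, 14.6 and 9.47 in shMCU replicates 1, 2 and 3, so the low value of shMCU replicate 3 was that of miR-378c. miR-378d was at 5.05 to 5.26 per 100 in the 3 shMCU libraries and at 5.47, 2.96 and 6.02 in shNC, its low value resting on 4 counts in shNC replicate 2. Neither differed between the groups beyond the spread of the libraries (exact permutation tests, two-sided p = 0.6 for miR-378c and p = 1.0 for miR-378d, unadjusted, 2 tests). In the edgeR test, miR-378c had a fold of 1.14 (95% interval 0.715 to 1.80, adjusted p = 0.88) and miR-378d of 1.28 (0.606 to 2.69, adjusted p = 0.86). For miR-378c the sign turned with library totals alone, to a log2 fold change of -0.0065, and without shMCU replicate 1, to -0.035.

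**Figure D2:**
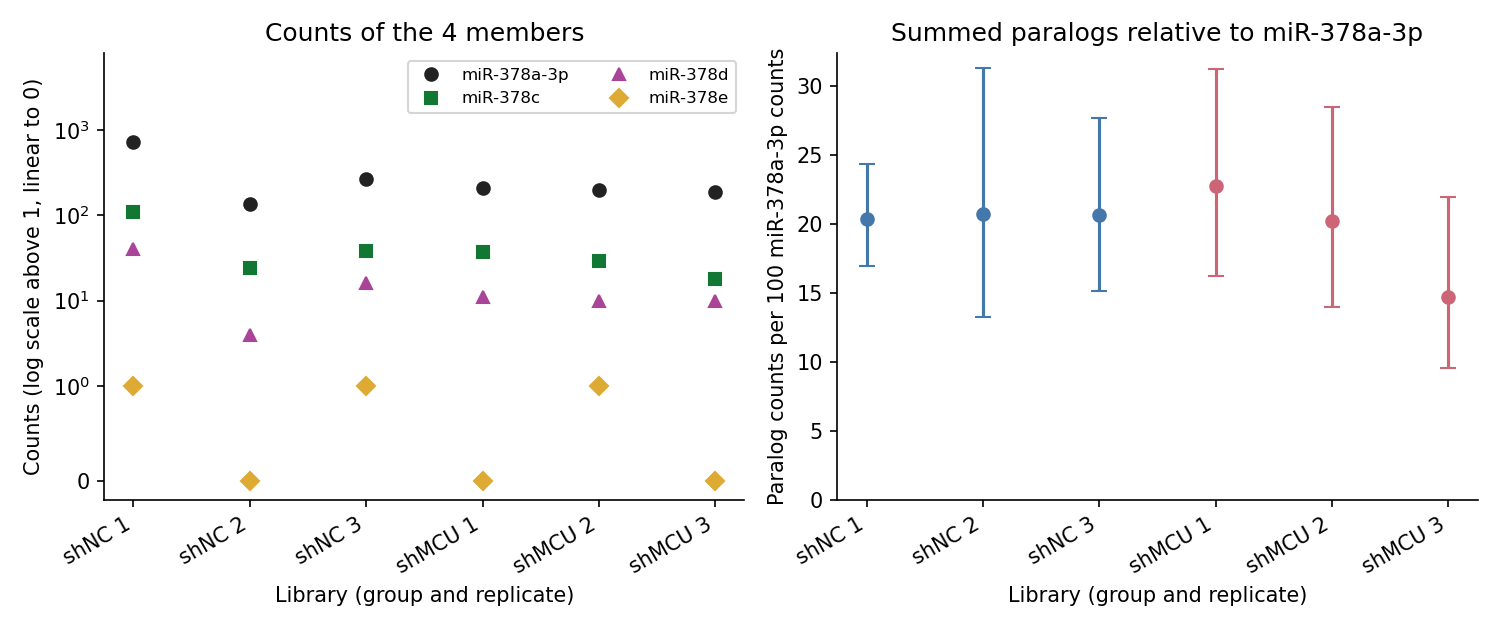
Counts of the 4 family members in each library on a log axis that is linear below 1 (left), and summed counts of miR-378c, miR-378d and miR-378e per 100 counts of miR-378a-3p with exact 95% intervals (right; blue shNC, red shMCU). The ratio stays between 20.2 and 22.7 in 5 libraries and is 14.7 in shMCU replicate 3.

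The 5p arm of miR-378a, the strand linked to ERRγ in breast cancer cells, was almost absent. It had 2 counts in shNC replicate 1, 2 in shMCU replicate 1 and 0 in the other 4 libraries. Of the 1735 counts of both arms, 4 came from the 5p arm, a share of 0.231% (exact 95% interval 0.0629% to 0.589%). A difference between groups was not detectable at this depth. The sequence of this arm was:
miR-378a-5p: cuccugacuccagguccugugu

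Other miRNAs linked to mitochondria or energy metabolism were compared with the family. Of 30 on the list, 24 were present in the tables and 14 were tested; 0 rose and 0 fell at an adjusted p of 0.05 by edgeR, as was so for all 79 miRNAs, and 0 of the 14 had an unadjusted p under 0.05. DESeq2 called 0 of them. Fitted fold changes were above 1 for 3 and below 1 for 11 of the 14, against 38 above and 41 below among all 79. With library totals alone the numbers above 1 were 1 of the 14 and 25 of the 79. The list's median log2 fold change was -0.24 and that of all tested miRNAs -0.02. Without shNC replicate 2, 17 of the list were tested, 7 of them with a fold above 1, and the medians were -0.0045 and 0.05. With library totals alone 1 of the 14 had an unadjusted p under 0.05 by edgeR, as had 3 of the 79. Without shMCU replicate 1 this held for 1 of 16 tested from the list and 12 of 91 in all. None of these from the list passed an adjusted p of 0.05. Of the tested members of the miR-378 family, 3 of 3 had folds above 1, or 2 of 3 with library totals alone.

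The members of that list with the highest levels were miR-27b-3p, miR-30a-5p, miR-25-3p and miR-27a-3p. miR-25-3p, which targets MCU itself, lay next to miR-378a-3p in level, averaging 14639 ± 3421 CPM (SD, n = 3) for shNC against 13672 ± 2661 CPM for shMCU; its fitted fold was 1.09 (95% interval 0.735 to 1.61). miR-27b-3p, described to target the mitochondrial protein prohibitin, averaged 34664 ± 878 CPM for shNC against 23634 ± 3940 CPM for shMCU, with a fitted fold of 0.784 (0.564 to 1.09). Its paralog miR-27a-3p had a fold of 0.884 (0.604 to 1.29). miR-30a-5p, of a family that has been linked to mitochondrial fission, had a fold of 0.840 (0.521 to 1.35). Among folds below 1, miR-103a-3p had the smallest p after miR-27b-3p. This miRNA, which lies in introns of the pantothenate kinase genes, averaged 2260 ± 216 CPM for shNC against 1436 ± 313 CPM for shMCU, with a fitted fold of 0.734 (0.453 to 1.19). Among the 3 folds above 1 the smallest p after that of miR-25-3p was that of the muscle miRNA miR-1, unadjusted p = 0.79, with a fold of 1.16 (0.332 to 4.06) that turned below 1 when replicate 1 or 3 of either group was left out. Adjusted p ran from 0.70 to 0.93 for these 6 (edgeR's quasi-likelihood test).

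**Figure D3:**
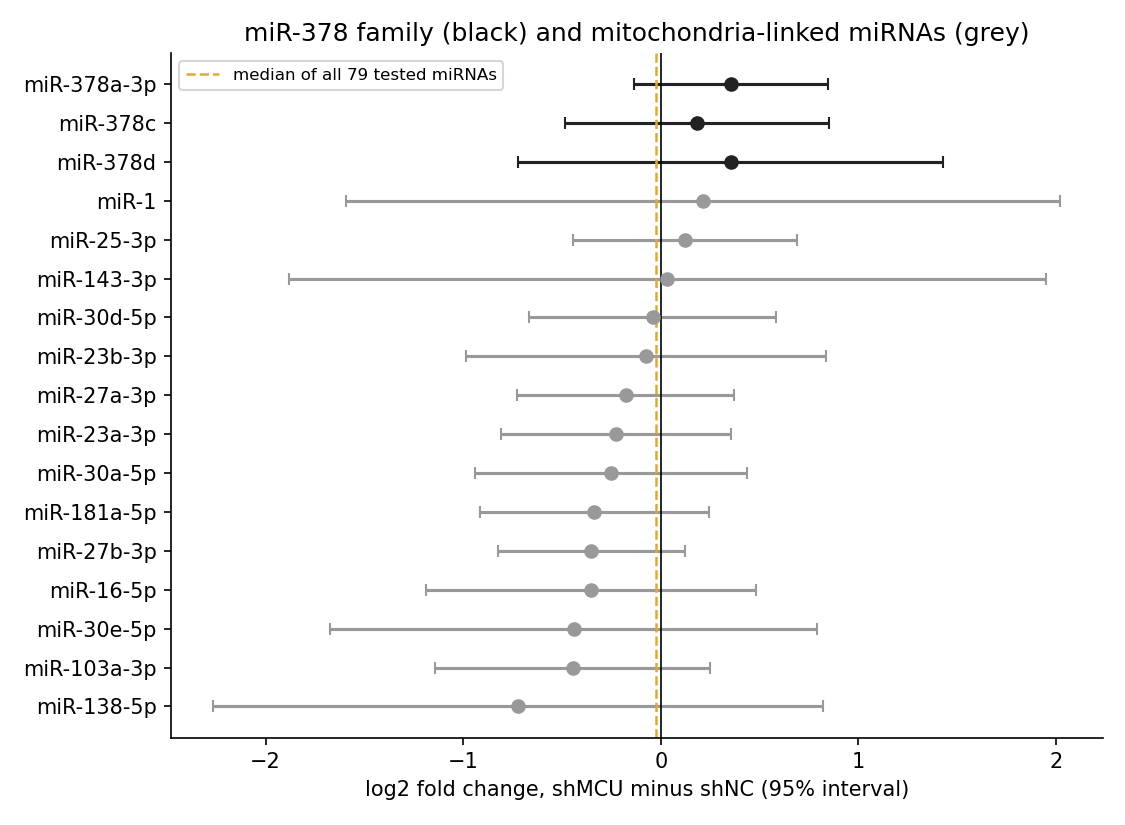
Fitted log2 fold changes (shMCU minus shNC) with 95% intervals for the 3 tested members of the miR-378 family (black) and the 14 tested mitochondria-linked miRNAs (grey); the dashed line marks the median of all 79 tested miRNAs. All 17 intervals include 0, with miR-378a-3p at 0.36 and the grey points from -0.72 to 0.22.

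The miRNAs whose levels ran most like miR-378a-3p over the 6 libraries were found by Pearson's correlation of TMM-scaled log2 CPM, as a description of 6 points that share their libraries and scaling factors. Of 78 other tested miRNAs the highest were miR-28-3p (r = 0.94), miR-532-5p (0.93), miR-122-5p (0.89), miR-378d (0.87) and miR-4461 (0.86). miR-378c came at number 33, with r = 0.07. The lowest were miR-26a-5p (-0.90) and miR-103a-3p (-0.90). Spearman's rho was 0.77 to 0.94 for the 5 highest, -0.94 for the 2 lowest and 0.09 for miR-378c.

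The order of likeness changed when 2 libraries were left out. miR-378a-3p was lowest in shNC replicate 2, at a log2 CPM of 13.41, and highest in shMCU replicate 3, at 14.15. Those 2 libraries were left out because they lay farthest from its median. This narrows its range, which by itself tends to lower r for the miRNAs ranked highest, and leaves few points. It therefore cannot show that the order rested on them. Without them r was 0.37 for miR-28-3p, 0.53 for miR-532-5p, 0.48 for miR-122-5p, 0.30 for miR-378d and 0.78 for miR-4461. It was 0.95 for miR-378c, and 0.97 for miR-10a-5p, which is outside the family and was named after its values were seen. With library totals in place of TMM, r over all 6 libraries was 0.43 for miR-122-5p, -0.40 for miR-103a-3p, 0.85 for miR-378d and 0.30 for miR-378c.

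**Figure D4:**
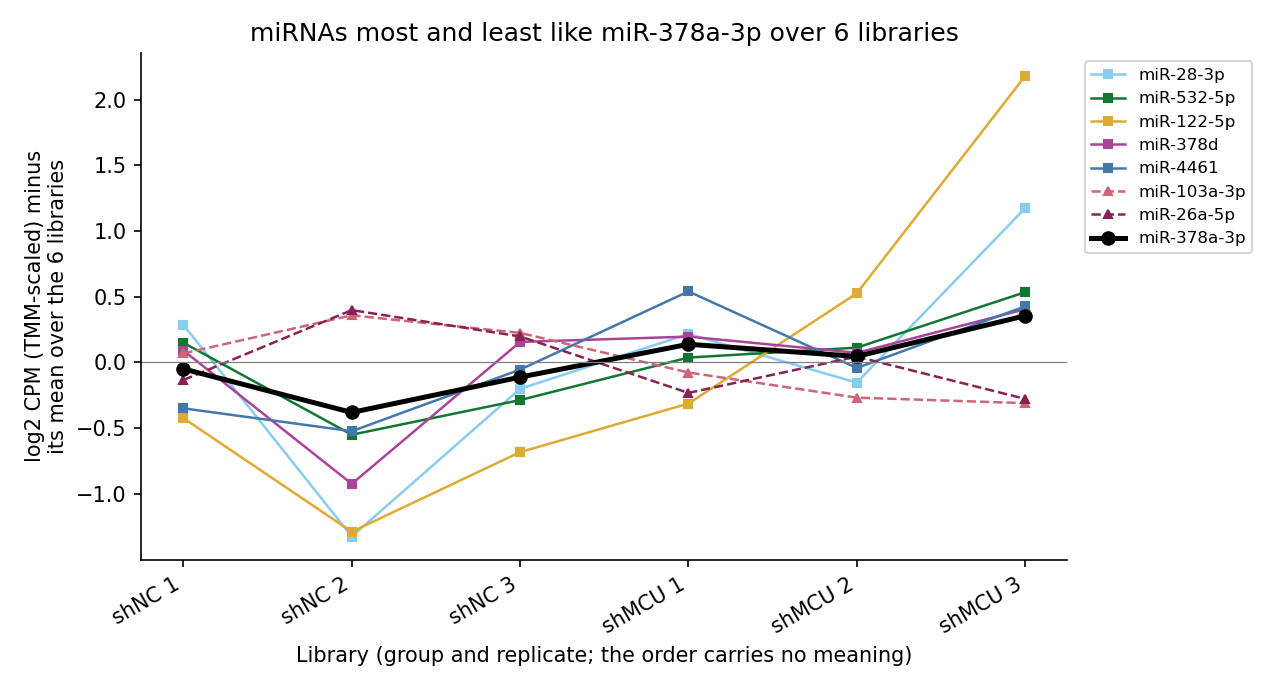
TMM-scaled log2 CPM of miR-378a-3p (black), the 5 miRNAs most like it (solid lines) and the 2 least like it (dashed lines), each minus its own mean over the 6 libraries; lines only link the points of one miRNA. miR-378a-3p and the 5 solid lines are lowest in shNC replicate 2, and all of them except miR-4461 are highest in shMCU replicate 3.

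miR-378 is also abundant in muscle, and miRNAs of other tissues were therefore read beside it. The muscle list (5 of 6 present in the tables) took 0.0340% to 0.242% of a library. Its leading member, miR-1, had 16, 21 and 11 counts in the shNC replicates and 15, 3 and 14 in the shMCU replicates, with miR-133a-3p at 0 to 5 counts, miR-133b at 0 or 1, miR-206 at 0 to 2 and miR-499a-5p at 0 in 5 libraries. The blood cell list (5 of 6 present), led by miR-486-5p and miR-451a, took 0.0408% to 0.109%, with miR-142-3p, miR-150-5p and miR-223-3p at 0 in 3 or more libraries each. The muscle share was highest in shNC replicate 2, where miR-378a-3p was lowest, and lowest in shMCU replicate 2; whether muscle RNA had a part in the values of miR-378a-3p was not tested. The liver pair miR-122-5p and miR-192-5p took 1.36% to 2.51% in shNC and 2.49% to 10.5% in shMCU libraries, almost all of it miR-122-5p. The level of miR-192-5p averaged 1450 ± 301 CPM (SD, n = 3) for shNC against 1488 ± 261 CPM for shMCU. The part of the source of miR-122-5p in the values of miR-378a-3p was not tested.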

How the data were processed

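The authors deposited 1 table of whole-number read counts per mature miRNA for each of 6 exosome libraries; the counts are not normalized. Alignment used Bowtie and the hg19 genome, per the submitters' processing notes. Aligner version and settings, the counting tool, the handling of reads that match several miRNAs and the miRNA annotation are not stated in the labels or file headers. Groups came from the sample titles. The members and lists were chosen with earlier results of these data known. The test was edgeR's robust quasi-likelihood F test (version 4.0.16, R 4.3.3) on TMM-normalized libraries with group as sole term, after filterByExpr with a minimum count of 10, and p-values were adjusted by Benjamini-Hochberg over 79 miRNAs. The SE was obtained as log2 fold change over the root of F. Shares used exact permutation tests and exact intervals (scipy 1.17.1). Log2 CPM used a prior count of 2. The fit was tested on simulated data. The changes put into them were all larger than the fitted change of miR-378a-3p, so detection at that size was not tested. Alternatives were DESeq2 1.42.0, other scaling, filters, a replicate block, the family summed into 1 row and each library left out. No libraries of a group agreed within sampling noise (chi-square per degree of freedom 4.61 or more). Across the groups, shMCU replicate 1 was closer than that to shNC replicate 1 (4.08) and to shNC replicate 3 (4.25). Named were all members, miR-378a-5p, miRNAs sharing the seed, the 2 tested neighbours on each side in level, the 5 most and 2 least alike, 4 mitochondria-linked miRNAs by level and up to 2 per direction by p, and detected markers of other tissues. The tables give miR-1-3p under its older name, miR-1. miR-422a, also in the naming rule, was not among the listed miRNAs.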

Additional observations from a re-analysis of the deposited data

How the results depend on the processing

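The number of miRNAs past an adjusted p of 0.05, 0 in the edgeR test, was 1 with DESeq2 (miR-122-5p), 1 without a filter (miR-375, named after its values were seen) and 0 in the other 11 alternatives, each library left out included; for these calls the cause was not tested. The log2 fold change of miR-378a-3p stayed above 0 and uncalled throughout, from 0.14 with library totals alone to 0.42 without shNC replicate 1, with adjusted p from 0.46 to 0.99; it was 0.26 with the family summed and 0.36 with a replicate block. The replicate numbers gave no evidence of pairing: deviations from the group means correlated at 0.16, -0.35 and 0.08 for equal numbers. The block changed no call. By an exact sign-flip permutation test on libraries paired by number, the share difference had p = 0.25 and the paralog ratio p = 0.75. The smallest p this exact permutation test allows is 0.25, which the share difference reached. The test could not fall below 0.05, so it decides nothing on either difference. Leaving out libraries moved the share difference to between 0.0532 and 0.233 points and the paralog ratio difference to between -3.13 and 0.875. For 9 named miRNAs, 107 fold changes were recomputed: 96 kept sign and side, and 11, of 4 miRNAs, changed sign, all uncalled. With library totals these were miR-378c -0.0065 and miR-25-3p -0.10, and without a filter miR-25-3p -0.073. With at least 100 counts miR-1 and miR-378d were not tested. With a library left out, they ranged from -0.035 to 0.27 for miR-378c, -0.076 to 0.29 for miR-25-3p, -0.29 to 1.10 for miR-1 and -0.49 to 0.11 for miR-30a-5p. Correlations with library totals were chosen after seeing the data. Depth limits miR-378d, miR-378e and miR-378a-5p most. The number of members with a count averaged 3.50 per library and 3.27 at equal depth (11563 counts).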
